A study of Homo sapiens with 6 samples.

Results

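The responses of HT29 and SW480 cells to depletion of BZW2 were set against each other, gene by gene. For each gene the log2 ratio of the BZW2 short hairpin RNA (shRNA) library over the non-targeting shRNA library was taken within each line on TMM-scaled CPM (reads relative to the library's total) with a prior count of 2, and the SW480 ratio was subtracted from the HT29 ratio. A positive difference therefore means that the ratio was higher in HT29, and a negative one that it was higher in SW480. A gene was kept if its identifier stood in 1 row, had values in all 4 libraries, and reached 5 CPM in the higher library of each line. Of 13040 identifiers, 11082 had 1 row and values in all 4 libraries, and 9747 of these were kept, of which 9445 were protein-coding genes.

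HT29 and SW480 are established human colorectal cancer cell lines. The 4 groups were HT29 with BZW2 shRNA, HT29 with non-targeting shRNA, SW480 with BZW2 shRNA and SW480 with non-targeting shRNA, each with 1 library. All cells carried a lentiviral vector and had been selected as stable lines with puromycin at 1 µg/ml, so the controls had been through the same infection and selection. The BZW2 libraries all carried the same hairpin (SH2 in the labels), so that an effect of this hairpin on other targets cannot be told apart from loss of BZW2. The series also holds an HCT116 pair, whose ratio is given beside some genes as a further line that the difference does not use. With 1 library per line and treatment there is no replicate check on any value, no test was made, and a difference between lines cannot be told apart from a difference between single cultures or libraries. The intervals given are exact 95% intervals for the counting of reads only. In bulk RNA, fewer cells with a transcript and less of it per cell cannot be told apart. Genes named beyond those with opposite ratios, the largest differences and the extremes of each list were chosen after their values were seen.

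BZW2 resembles part of eIF5, a factor of translation initiation, and takes part in the selection of start codons. Most of the genes with the lowest differences belong to the type I interferon response. This response starts when sensors such as RIG-I and MDA5 bind double-stranded RNA in the cytoplasm. Secreted interferon then acts through the kinases JAK1 and TYK2 on transcription factors that bind interferon-stimulated response elements in the promoters of antiviral genes. Many tumour lines keep part of this program active without added interferon.

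Depth over the listed genes was 8968603 reads in the HT29 BZW2 shRNA library, 9317444 in the HT29 control, 6105605 in the SW480 BZW2 shRNA library and 5078001 in the SW480 control. In HCT116 it was 2187373 reads in the BZW2 shRNA library and 5640626 in the control. That HCT116 BZW2 shRNA library had 0 reads for 129 of its listed genes. BZW2 stood at 133 reads in the knockdown and 1590 reads in the control of HT29, which is 8.64% of its control (interval 7.19 to 10.3%), and at 77 reads in the knockdown and 456 reads in the control of SW480, which is 13.3% (interval 10.3 to 17%). BZW2 was thus low in both libraries labelled with its hairpin, and the difference for BZW2 was −0.63 (interval −1.07 to −0.17), or −0.10 after GC content and transcript length were removed. Its paralog BZW1 was at 134% of control in HT29 and 89.1% in SW480, a difference of 0.59. Of 12 markers of colorectal epithelium 6 were listed in both lines, namely EPCAM, CDH1, KRT8, KRT18, KRT19 and CDX2. CDX2 was low, with 22 reads in the knockdown and 40 reads in the control of HT29 and 74 reads in the knockdown and 49 reads in the control of SW480. CDH17, KRT20, CDX1, VIL1, LGALS4 and GPA33 were not listed. Of 20 markers of other cell types 2 were listed. COL1A1, a fibroblast collagen gene, had 10 reads in the knockdown and 26 reads in the control of SW480, and HBA1, an α-globin gene, had 10610 reads in the knockdown and 6586 reads in the control of HT29 and 4715 reads in the knockdown and 5096 reads in the control of SW480. The neighbouring, near-identical HBA2 had 27138 reads in the knockdown and 17186 reads in the control of HT29 and 12242 reads in the knockdown and 13393 reads in the control of SW480, and the split of reads between the pair is uncertain. HBA1 had a difference of 1.19 and HBA2 of 1.18, and the source of this RNA was not tested.

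Across the 9747 genes the difference had a median of −0.01 and an SD of 0.70, with quartiles at −0.41 and 0.40. The ratios themselves had an SD of 0.63 in HT29 and 0.65 in SW480, and their Spearman correlation across genes was 0.396 (the ratios share the TMM scaling, and genes are not independent). For 3490 genes (35.8%) the ratios had opposite signs. A difference of at least 1, which is 2-fold, was found for 633 genes (6.49% of those kept) in the positive and 579 genes (5.94%) in the negative direction. Among the 633, the ratio further from 0, in either direction, was that of SW480 for 439 genes and that of HT29 for 194. Among the 579, it was that of HT29 for 379 genes and that of SW480 for 200. The median half-width of the counting interval was 0.36, and for 53.7% of genes the interval excluded 0. That interval holds no spread between cultures or libraries.

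Genes at least 2-fold lower in one line and at least 2-fold higher in the other were few. Of the 9747 genes, 20 (0.205%) were at least 2-fold lower with BZW2 shRNA in HT29 and at least 2-fold higher in SW480, and 6 (0.0616%) went the other way. Of the 20, 16 were on the interferon-response list, which held 39 of the 9747 genes kept. They were IFIT1, SAMD9, IFI6, DDX60, IFI44, IFIT2, IFIH1, RIGI, USP18, OAS3, PARP9, SP110, DTX3L, PARP12, ISG15 and TRIM14. The other 4 were CENPE, TAP2, CDC42BPA and SLC35G2, of which TAP2 was on the list of MHC class I antigen presentation. The 6 in the opposite direction were CXCR4, NKD1, EPHB3, PLCD1, WDTC1 and FMNL3. Of the 20, SP110, IFI44 and IFIT2 reached 5 CPM in SW480 only with BZW2 shRNA. A gene under that limit in the SW480 control could be kept only if it was higher with BZW2 shRNA. SP110 rested on 20 reads in the knockdown and 61 reads in the control of HT29. In SW480 it had 38 reads in the knockdown and 10 reads in the control (interval of the difference −4.54 to −1.80).

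**Figure D1:**
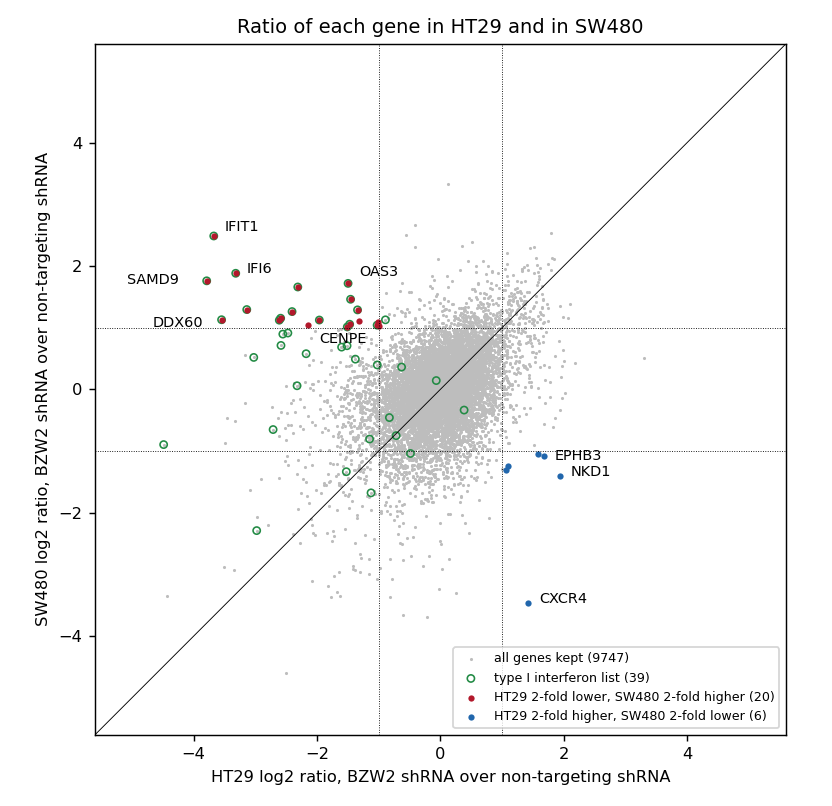
Each point is a gene, with its log2 ratio of BZW2 shRNA over non-targeting shRNA in HT29 on the x axis and in SW480 on the y axis. Dotted lines mark 2-fold, the diagonal marks equal ratios, green rings are the 39 interferon-response genes, red points the 20 genes lower in HT29 and higher in SW480, and blue points the 6 genes higher in HT29 and lower in SW480. The red points lie at the upper left, with IFIT1 furthest from the diagonal, and CXCR4 lies alone at the lower right.

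The promoters of the interferon-response genes are shown first, because the interferon-stimulated response element is the sequence through which this group is known to be read out together. The motif searched was GAAANNGAAA on either strand, in RefSeq windows of 300 bases around each gene's start (build GRCh38.p14). Of the 39 interferon-response genes kept, 33 had such a window and 23 of these (69.7%) held the motif. Over all 35116 windows in the table the share was 3.57%, and over the 7964 kept genes with a window it was 2.57%. The 250 bases before the start that RefSeq gives are shown for 3 genes that hold the motif and for RIGI, which does not, each in the direction of transcription with the matching bases in capitals. RefSeq's start can lie inside the span of the gene given elsewhere in the text, which is GENCODE's and covers all annotated transcripts.
IFIT1, chr10:89392373-89392622, plus strand: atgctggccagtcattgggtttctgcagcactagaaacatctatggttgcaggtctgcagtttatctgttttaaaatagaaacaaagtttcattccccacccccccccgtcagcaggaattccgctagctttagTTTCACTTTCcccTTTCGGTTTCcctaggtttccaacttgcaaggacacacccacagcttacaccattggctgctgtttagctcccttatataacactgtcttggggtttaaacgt
IFI6, chr1:27672193-27672442, minus strand: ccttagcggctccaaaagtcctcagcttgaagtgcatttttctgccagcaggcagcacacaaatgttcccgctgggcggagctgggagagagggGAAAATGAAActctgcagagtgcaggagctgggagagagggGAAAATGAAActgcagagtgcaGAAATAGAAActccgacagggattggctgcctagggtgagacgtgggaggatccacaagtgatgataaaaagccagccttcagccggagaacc
ISG15, chr1:1013247-1013496, plus strand: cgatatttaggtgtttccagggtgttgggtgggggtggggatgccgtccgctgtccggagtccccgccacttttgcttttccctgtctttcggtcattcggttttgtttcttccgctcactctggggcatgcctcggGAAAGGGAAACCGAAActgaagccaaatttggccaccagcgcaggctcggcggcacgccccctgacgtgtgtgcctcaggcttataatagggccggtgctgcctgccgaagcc
RIGI, chr9:32526197-32526446, minus strand: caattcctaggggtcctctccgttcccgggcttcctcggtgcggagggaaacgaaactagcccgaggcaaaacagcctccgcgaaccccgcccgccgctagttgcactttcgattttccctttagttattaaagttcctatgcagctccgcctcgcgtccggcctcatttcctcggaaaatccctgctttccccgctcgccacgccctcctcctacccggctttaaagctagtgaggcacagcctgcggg
IFIT1 holds 2 matches, both on the opposite strand, so that they read as TTTC pairs here. IFI6 holds 3 matches on the strand shown. The 2 matches of ISG15 overlap. The median difference was −2.53 for the 23 genes with a match and −2.39 for the 10 without, which are close together. The 182 other kept genes that hold a match had a median difference of −0.12.

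Interferon-response genes as a group were lower with BZW2 shRNA in HT29 and mostly higher in SW480. The list had 57 symbols, of which 42 were listed in all 4 libraries and 39 were kept. Its median difference was −2.53, against −0.01 over all genes, with a median ratio of −1.60 in HT29 and 0.71 in SW480. Of the 39 genes, 35 had a negative difference and 29 (74.4%) one of −1 or below, against 5.94% of all genes. For 29 genes HT29 was below and SW480 above its control, for 9 both lines were below, and for 1, LGALS3BP, HT29 was above and SW480 below. The lists were drawn up with earlier results of these data known, so the share is a description of the libraries. Of the 10 genes with the lowest difference of all, 9 were on this list, and of the lowest 20, 16 were.

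Levels placed the HT29 control apart from the other libraries. Summed over the 39 genes, the level was 2527.2 CPM with BZW2 shRNA and 7766.5 CPM in the control of HT29, and 2969.3 CPM with BZW2 shRNA and 2070.9 CPM in the control of SW480. The HT29 control held the highest of the 4 values for 33 of the 39 genes. The HT29 library with BZW2 shRNA thus stood near both SW480 libraries in summed level, and the HT29 control stood above all 3. In HCT116 the median ratio of the same genes was −1.19.

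**Figure D2:**
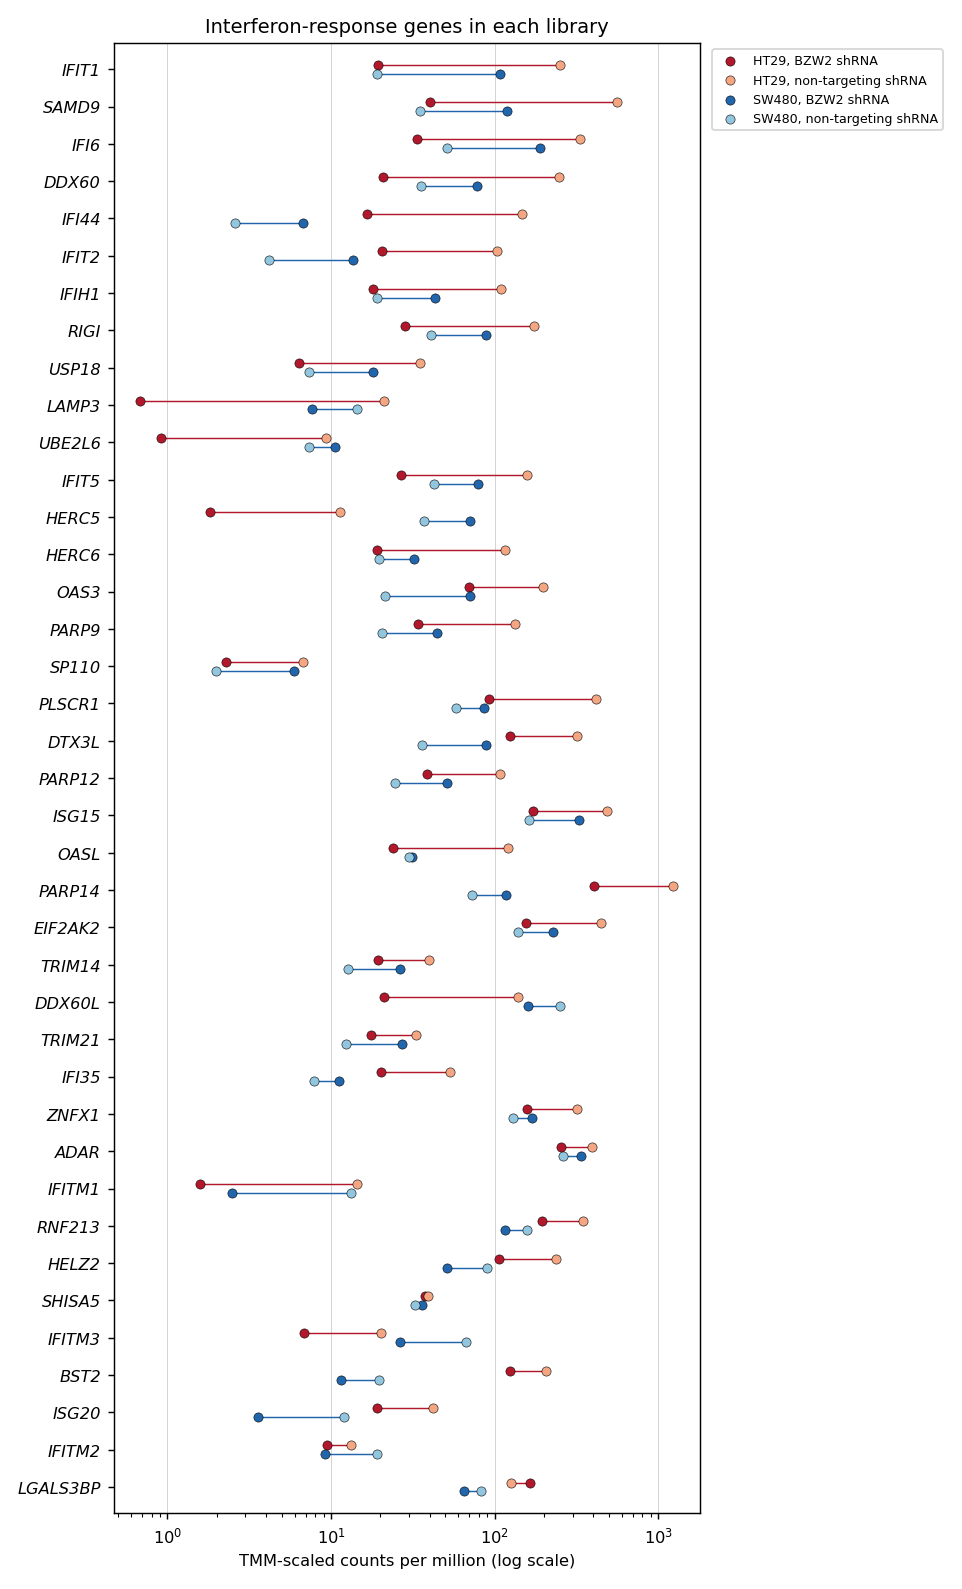
TMM-scaled CPM on a log scale for the 39 interferon-response genes kept, ordered from the most negative difference at the top. For each gene the upper line joins HT29 with BZW2 shRNA (dark red) and the HT29 control (light red), and the lower line joins SW480 with BZW2 shRNA (dark blue) and the SW480 control (light blue). In the upper part the HT29 control is the highest and the dark blue point lies right of the light blue one, and in the lowest part both lines point the same way.

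Among the antiviral effectors, IFIT1 had the largest difference of any gene. IFIT1 (ENSG00000185745, chr10:89392546-89406486 on the plus strand of GRCh38) encodes a protein that binds foreign capped RNA. It stood at 19.4 CPM with BZW2 shRNA and 251 CPM in the control in HT29, and at 108 CPM with BZW2 shRNA and 19.0 CPM in the control in SW480. The HT29 knockdown and SW480 control libraries were thus almost level, and the other 2 libraries were the high ones. The ratios were −3.67 in HT29 and 2.49 in SW480, and the difference of −6.16 (interval −6.60 to −5.80) puts the ratios 71.6-fold apart. Its neighbours IFIT2 and IFIT5 on the same chromosome, which encode related RNA-binding proteins, had differences of −3.97 and −3.45.

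SAMD9, an antiviral and growth-restricting gene (chr7:93099513-93118023, minus strand), came next. It held 354 reads in the knockdown and 5086 reads in the control of HT29 and 765 reads in the knockdown and 177 reads in the control of SW480. Its level in the HT29 control, 560 CPM, was the highest of the 4, and its difference was −5.55 (interval −5.85 to −5.28). IFI6 (chr1:27666061-27672218, minus strand), which encodes a small antiviral membrane protein, stood at 33.3 CPM in the knockdown and 335 CPM in the control of HT29 and at 190 CPM in the knockdown and 51.4 CPM in the control of SW480. Its difference was −5.20 (interval −5.48 to −4.95). DDX60, a helicase gene of antiviral defence, had 20.9 CPM in the knockdown and 248 CPM in the control of HT29 and 77.8 CPM in the knockdown and 35.4 CPM in the control of SW480, a difference of −4.68 (interval −5.04 to −4.36). IFI44, an interferon-induced gene whose protein role is less settled, was at 16.5 CPM in the knockdown and 147 CPM in the control of HT29 and at 6.70 CPM in the knockdown and 2.57 CPM in the control of SW480, where it rested on 43 reads in the knockdown and 13 reads in the control. Its interval, −5.59 to −3.57 around −4.43, was accordingly wide.

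The sensors RIG-I and MDA5 stood apart by almost the same amount. RIGI, which encodes RIG-I, stood at 28.4 CPM with BZW2 shRNA and 175 CPM in the control in HT29, and at 89.0 CPM in the knockdown and 40.8 CPM in the control of SW480. IFIH1, which encodes MDA5, stood at 17.965 CPM in the knockdown and 109.5 CPM in the control of HT29 and at 43.0 CPM in the knockdown and 19.2 CPM in the control of SW480. The difference was −3.73 (interval −4.06 to −3.44) for RIGI and −3.74 (interval −4.20 to −3.35) for IFIH1 and the intervals overlap almost entirely. EIF2AK2, the kinase PKR that halts translation on binding double-stranded RNA, had 156 CPM in the knockdown and 446 CPM in the control of HT29 and 227 CPM in the knockdown and 139 CPM in the control of SW480, a difference of −2.22. OAS3, which makes the oligoadenylates that activate RNase L, had 70.0 CPM in the knockdown and 198 CPM in the control of HT29 and 70.9 CPM in the knockdown and 21.4 CPM in the control of SW480, a difference of −3.21. ADAR, which edits double-stranded RNA, was closer, at −0.99.

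Genes of the ISG15 pathway, in which the ubiquitin-like ISG15 is joined to other proteins, stood apart from its tag to the enzymes that attach and remove it. ISG15 itself had 171 CPM with BZW2 shRNA and 486 CPM in the control in HT29, against 328 CPM in the knockdown and 162 CPM in the control of SW480, and had a difference of −2.52 (interval −2.67 to −2.38). The conjugating enzyme gene UBE2L6 had 8 reads in the knockdown and 85 reads in the control of HT29 and 68 reads in the knockdown and 37 reads in the control of SW480, a difference of −3.54. The ligase gene HERC5 had 16 reads in the knockdown and 103 reads in the control of HT29 and 451 reads in the knockdown and 188 reads in the control of SW480, a difference of −3.39. Unlike most of the list, HERC5 was higher in both SW480 libraries than in either HT29 library. USP18, which removes ISG15 and dampens the interferon receptor, had 6.37 CPM in the knockdown and 34.9 CPM in the control of HT29 and 17.9 CPM in the knockdown and 7.32 CPM in the control of SW480, a difference of −3.67. HERC6, also on the interferon list but not counted here in the ISG15 pathway, stood at −3.30.

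The list also holds ADP-ribosyltransferase genes (PARP9, PARP12 and PARP14) and DTX3L, a ubiquitin ligase gene, which were put together here after their values were seen. PARP9 and DTX3L encode partners of one complex, lie next to each other on chromosome 3 and had differences of −3.09 and −2.63. Their annotated ends overlap (PARP9 ends at 122564577 on the minus strand, and DTX3L starts at 122564238 on the plus strand), and since the strand setting of the counting is not given in the sources used here, reads in the overlap cannot be assigned. PARP14 had 407 CPM with BZW2 shRNA and 1235 CPM in the control in HT29, and 117 CPM in the knockdown and 72.8 CPM in the control of SW480, a difference of −2.29. PARP12 stood at −2.53. All 4 were lower than control in HT29 and higher than control in SW480.

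Members that did not follow were mostly lower in both lines. LAMP3, a lysosomal membrane protein gene, had 6 reads in the knockdown and 192 reads in the control of HT29 and 49 reads in the knockdown and 73 reads in the control of SW480. Its difference of −3.59 therefore came from a lower ratio in HT29 and not from opposite directions. IFITM1, an antiviral membrane protein gene, had 14 reads in the knockdown and 131 reads in the control of HT29 and 16 reads in the knockdown and 67 reads in the control of SW480, and its difference of −0.69 had an interval that included 0 (−2.003 to 0.46). BST2, or tetherin, stood at −0.72 in HT29 and −0.75 in SW480, a difference of 0.03. LGALS3BP, a secreted glycoprotein gene, had 165 CPM in the knockdown and 126 CPM in the control of HT29 and 65.0 CPM in the knockdown and 82.1 CPM in the control of SW480, and the highest difference of the list, 0.72. MX1, IFI27 and DHX58 were left out by the CPM rule, since SW480 had under 5 CPM of each. MX1, an antiviral GTPase gene, had 18.5 CPM in the knockdown and 226 CPM in the control of HT29 and 2.96 CPM in the knockdown and 4.55 CPM in the control of SW480.

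The signalling components stood near 0 as a list, with a median difference of −0.10 over 19 genes kept of 28. IRF7, which drives interferon production, had 40.0 CPM in the knockdown and 131 CPM in the control of HT29 and 15.9 CPM in the knockdown and 14.6 CPM in the control of SW480, a difference of −1.82. The HT29 control was the highest library. STAT2 had a difference of 0.28 with an interval that included 0 (−0.10 to 0.65), and the kinase genes JAK1 and TYK2 stood at −0.42 and 0.93. Of the receptor genes, IFNAR1 was at −0.65, IFNGR2 at −1.25 and IFNLR1, the receptor of type III interferon, at 1.13. IRF1 had nearly the same ratio in both lines (−1.02 in HT29 and −0.98 in SW480).

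Antigen presentation by MHC class I, which interferon also raises, had a median difference of −0.58 over 17 genes, 6 of them (35.3%) at −1 or below, against 5.94% of all genes. Genes of peptide supply and the family's transactivator stood furthest apart. TAP2 and TAP1 together form the peptide transporter. TAP2 had 25.015 CPM in the knockdown and 63.1 CPM in the control of HT29 and 40.5 CPM in the knockdown and 18.6 CPM in the control of SW480, a difference of −2.44, and TAP1 had 19.4 CPM in the knockdown and 45.2 CPM in the control of HT29 and 96.8 CPM in the knockdown and 53.8 CPM in the control of SW480, a difference of −2.05. NLRC5, the transactivator of class I genes, stood at −3.72 but rested on 4 reads in the knockdown and 57 reads in the control of HT29 and 51 reads in the knockdown and 27 reads in the control of SW480 (interval −6.39 to −2.68). The class I chain gene HLA-B was lower in both lines, at −1.41 in HT29 and −0.50 in SW480, and its reads may be split with near-identical loci. B2M, the light chain, was at −0.55 in HT29 and 0.20 in SW480. PDIA3, a chaperone of the loading complex, had the highest difference of the list, 0.60.

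The genes lower in HT29 and higher in SW480 outside the interferon list included CENPE, a kinetochore kinesin gene. CENPE stood at 17.7 CPM with BZW2 shRNA and 79.1 CPM in the control in HT29, and at 93.2 CPM in the knockdown and 45.3 CPM in the control of SW480, a difference of −3.18 (interval −3.54 to −2.86). Other mitosis genes pointed the same way to a smaller extent. The list of 38 had a median of −0.35 with ratios above 0 in both lines for 33 genes, and 7 genes (18.4%) at −1 or below, against 5.94% of all genes. KIF20B stood at −2.59 and NUF2 at −1.81, while SPC24 had the highest difference, 0.59. CENPE, KIF20B and NUF2 have transcripts of 35.3%, 34.2% and 38.8% GC, and after GC content and length were removed their differences were −2.65, −1.94 and −1.42. CDC42BPA, a kinase gene of the actomyosin system, had 143 CPM in the knockdown and 287 CPM in the control of HT29 and 414 CPM in the knockdown and 194 CPM in the control of SW480, a difference of −2.10. SLC35G2, a solute carrier gene, stood at −2.03.

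Large differences could also come from a single line. STXBP6, a regulator of membrane fusion, had 302 reads in the knockdown and 286 reads in the control of HT29 and 80 reads in the knockdown and 5 reads in the control of SW480, so that its difference of −3.21 lay almost wholly in SW480. AQP3, a water and glycerol channel gene, had 391 reads in the knockdown and 537 reads in the control of HT29 and 106 reads in the knockdown and 12 reads in the control of SW480, a difference of −3.07. For both genes the SW480 control was the low library.

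In the opposite direction CXCR4, the receptor of the chemokine CXCL12, had the highest difference of any gene. CXCR4 (ENSG00000121966, chr2:136114349-136118165, minus strand) stood at 121 CPM with BZW2 shRNA and 44.8 CPM in the control in HT29, and at 0.935 CPM in the knockdown and 13.1 CPM in the control of SW480, from 6 reads in the knockdown and 66 reads in the control. The level in SW480 was below that of both HT29 libraries, and the fewest reads were in the SW480 knockdown library. The ratios were 1.43 and −3.46 in HT29 and SW480, and the difference was 4.89 (interval 4.02 to 6.74).

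Targets of Wnt signalling were among the genes higher in HT29 and lower in SW480. NKD1, a feedback inhibitor induced by Wnt signalling, had 37.2 CPM with BZW2 shRNA and 9.46 CPM in the control in HT29, and 11.8 CPM in the knockdown and 31.9 CPM in the control of SW480, a difference of 3.35 (interval 2.86 to 3.95). EPHB3, an ephrin receptor gene of the intestinal crypt, had 142 reads in the knockdown and 44 reads in the control of HT29 and 17 reads in the knockdown and 30 reads in the control of SW480, a difference of 2.77 (interval 1.84 to 3.98). Its relative EPHB2 had 92 reads in the knockdown and 28 reads in the control of HT29 and 108 reads in the knockdown and 126 reads in the control of SW480, a difference of 2.24. In HT29 all 3 were over 3-fold above the control. The Wnt list had a median difference of 0.57 over 19 genes kept of 30, with 15 above 0 and 4 (21.1%) at 1 or above, against 6.49% of all genes. APC, the scaffold of β-catenin destruction, had the lowest difference of the list, −1.20.

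PLCD1, a phospholipase C gene, had 77 reads in the knockdown and 25 reads in the control of HT29 and 78 reads in the knockdown and 129 reads in the control of SW480, a difference of 2.63. WDTC1, a ubiquitin ligase adaptor gene, stood at 2.37 and FMNL3, a formin gene, at 2.35. Read numbers of the 6 genes were low: apart from CXCR4 and NKD1 in HT29, none reached 200 reads in any library. After GC content and length were removed, 2 genes met the rule in this direction and 1 of the 6 was among them.

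**Figure D3:**
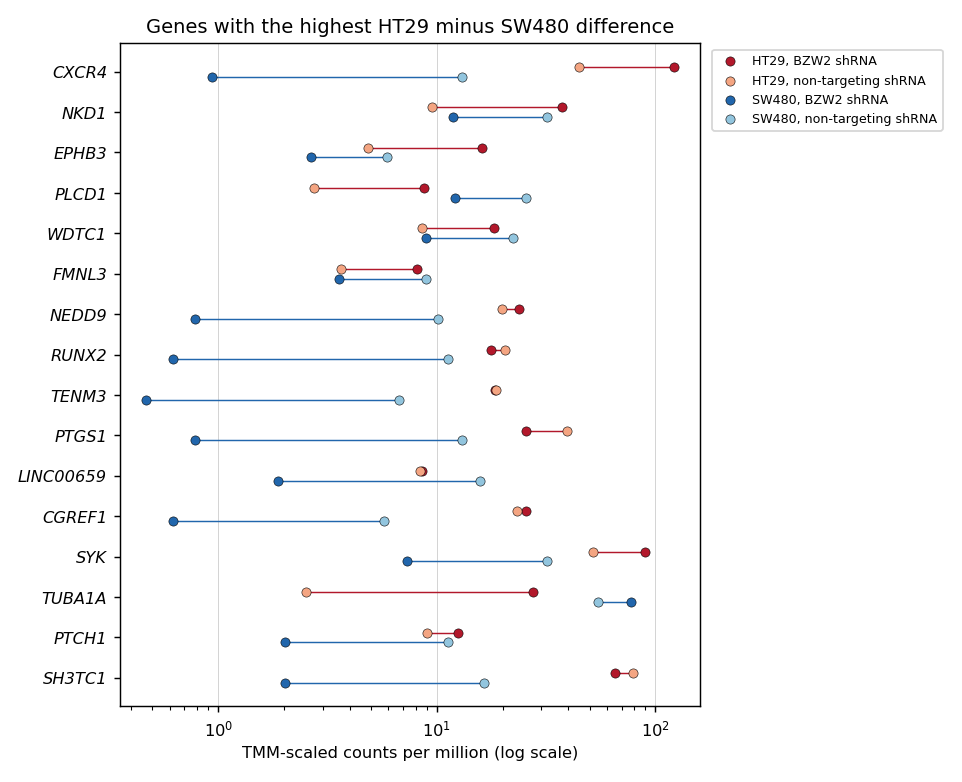
TMM-scaled CPM on a log scale for the 6 genes higher in HT29 and lower in SW480 (top) and the 10 next genes by highest difference. For each gene the upper line joins HT29 with BZW2 shRNA (dark red) and the HT29 control (light red), and the lower line joins SW480 with BZW2 shRNA (dark blue) and the SW480 control (light blue). For NEDD9 and most genes beneath it the HT29 points nearly coincide and the SW480 points lie far apart, with TUBA1A as the exception.

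The next genes with a high difference were mostly genes lower in SW480 with BZW2 shRNA and nearer to their control in HT29. RUNX2, a transcription factor gene, had 155 reads in the knockdown and 186 reads in the control of HT29 and 4 reads in the knockdown and 57 reads in the control of SW480, a difference of 3.47. NEDD9, a scaffold of focal adhesions, had 208 reads in the knockdown and 180 reads in the control of HT29 and 5 reads in the knockdown and 51 reads in the control of SW480, a difference of 3.55. TENM3, PTGS1 (cyclooxygenase), LINC00659 (annotated as antisense, so that its reads may belong to the other strand), CGREF1, PTCH1 (the hedgehog receptor) and SH3TC1 had the same form, with differences between 2.58 and 3.22 and no more than 13 reads in the SW480 knockdown library. SYK, a tyrosine kinase gene, had 89.3 CPM in the knockdown and 51.6 CPM in the control of HT29 and 7.33 CPM in the knockdown and 32.0 CPM in the control of SW480, a difference of 2.88. TUBA1A, an α-tubulin gene with near-identical relatives, differed in form. It had 242 reads in the knockdown and 23 reads in the control of HT29 and 498 reads in the knockdown and 275 reads in the control of SW480, so that its difference of 2.80 came from a ratio of 3.31 in HT29.

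Ribosomal protein genes differed by a small amount with great regularity. All 77 kept of 78 cytosolic ribosomal protein genes had a positive difference, with a median of 0.81, a range from 0.10 to 1.46, and 8 genes (10.4%) at 1 or above, against 6.49% of all genes. For 76 of them HT29 was above and SW480 below its control, with median ratios of 0.30 and −0.50. Together they made up 139910 CPM with BZW2 shRNA and 111906 CPM in the control of HT29, and 85152 CPM with BZW2 shRNA and 122183 CPM in the control of SW480. RPL3 had 4453 CPM in the knockdown and 3198 CPM in the control of HT29 and 2938 CPM in the knockdown and 5806 CPM in the control of SW480, a difference of 1.46 (interval 1.43 to 1.495). RPS16 stood at 1.38 and RPS21 at 1.31. The median was 0.72 after GC content and length were removed. In HCT116 65 of the 77 were below control, with a median ratio of −0.71.

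Ribosomal protein pseudogenes and short noncoding RNA genes had positive differences too. Of 86 processed pseudogenes kept 50 bear the name of a ribosomal protein gene, and their median difference was 0.94. Their reads may come from the parent genes. All 8 small nuclear RNA genes kept and 28 of 29 small nucleolar RNA genes had a positive difference, with medians of 1.31 and 0.97. RNU4-1, a spliceosomal RNA gene, had 138 CPM in the knockdown and 106 CPM in the control of HT29 and 109 CPM in the knockdown and 242 CPM in the control of SW480, a difference of 1.54. SNORA71C, a guide of RNA pseudouridylation, had 114 reads in the knockdown and 68 reads in the control of HT29 and 22 reads in the knockdown and 40 reads in the control of SW480, a difference of 1.92. After GC content and length were removed the medians were 0.57 for the small nuclear and 0.12 for the small nucleolar RNA genes. How small RNAs were recovered in each library was not tested.

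Most genes of ribosome biogenesis and other MYC targets had differences opposite in sign to those of the ribosome itself. The 35 genes of that list had a median difference of −0.53, with ratios of −0.05 in HT29 and 0.44 in SW480, and 28 of them were below 0. NOP58, a core protein of small nucleolar ribonucleoproteins, had 98.5 CPM with BZW2 shRNA and 248 CPM in the control in HT29, and 213 CPM in the knockdown and 155.5 CPM in the control of SW480, a difference of −1.78 (interval −1.96 to −1.61). RRS1 and PPAN, assembly factors of the large subunit, both stood at −1.34. ODC1, the first enzyme of polyamine synthesis and a MYC target, had the highest difference of the list, 1.09. In HCT116 the median ratio was 1.31. Translation initiation factors, the family to which BZW2 is related, had a median of −0.08 over 39 genes, with EIF5 lowest at −0.97 and EIF4B highest at 1.02.

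Most targets of ATF4, a transcription factor of the integrated stress response, were lower with BZW2 shRNA in both lines, and the median was lower in SW480. Of 25 ATF4 targets kept of 32, 24 were below control in both lines, and the median difference of 0.82 came from median ratios of −0.86 in HT29 and −1.25 in SW480. A difference of 1 or above was found for 10 of them (40%), against 6.49% of all genes. DDIT3, which encodes CHOP, had 46.5 CPM with BZW2 shRNA and 265 CPM in the control in HT29, and 16.8 CPM in the knockdown and 415 CPM in the control of SW480, a difference of 2.10 (interval 1.79 to 2.44). CHAC1, a glutathione-degrading enzyme gene, stood at 2.04. ASNS, asparagine synthetase, had 353 CPM in the knockdown and 694 CPM in the control of HT29 and 61.1 CPM in the knockdown and 454 CPM in the control of SW480, a difference of 1.91. GDF15, a stress cytokine gene, had the lowest difference, −0.69.

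The unfolded protein response had the same form. Of its 28 genes 20 were below control in both lines and 22 had a positive difference, with a median of 0.56 and 7 genes (25%) at 1 or above, against 6.49% of all genes. HSPA5, the chaperone BiP, had 436 CPM in the knockdown and 1070 CPM in the control of HT29 and 609 CPM in the knockdown and 4770 CPM in the control of SW480, a difference of 1.67 (interval 1.60 to 1.75). The SW480 control thus held several times the HSPA5 level of the other 3 libraries. HERPUD1, of the degradation machinery, stood at 1.84, WFS1 at 1.53, and EDEM3 at −0.41. Hypoxia and glycolysis genes had a median of 0.34 over 34 genes, with GPI at 2.08, ADM at 1.38, P4HA1 at 1.32 and, in the other direction, PLOD2 at −1.67. GPI, a glycolytic enzyme gene, had 155 CPM in the knockdown and 122 CPM in the control of HT29 and 106 CPM in the knockdown and 355 CPM in the control of SW480.

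Epithelial junction and keratin genes were nearer to their control in HT29. The 29 genes had a median difference of 0.39, with median ratios of −0.24 in HT29 and −0.63 in SW480, and 9 of them (31%) stood at 1 or above, against 6.49% of all genes. JUP, which encodes plakoglobin, had 97.4 CPM in the knockdown and 75.4 CPM in the control of HT29 and 33.1 CPM in the knockdown and 96.9 CPM in the control of SW480, a difference of 1.91. KRT80 was at 2.15 on 9 reads in the knockdown and 56 reads in the control of SW480, KRT23 was at 1.89, and KRT8, a keratin of simple epithelia, was at −0.74.

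Targets of p53 leaned toward SW480, with a median difference of −0.37 and 7 of 27 genes (25.9%) at −1 or below, against 5.94% of all genes. CDKN1A, which encodes the cell-cycle inhibitor p21, had 8.41 CPM with BZW2 shRNA and 35.9 CPM in the control in HT29, and 232 CPM in the knockdown and 167 CPM in the control of SW480, a difference of −2.53 (interval −2.97 to −2.17). Both SW480 libraries were above both HT29 libraries. PMAIP1, which encodes NOXA, stood at −1.42, PHLDA3 at −1.33 and SESN2, also an ATF4 target, at 1.0102.

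Of the mRNAs made in mitochondria, 10 of 13 were below control in both lines, with a median difference of −0.74. Genes of complex I led. MT-ND5 had 82.6 CPM with BZW2 shRNA and 277 CPM in the control in HT29, and 335 CPM in the knockdown and 320 CPM in the control of SW480, a difference of −1.81. MT-ND6 stood at −2.12, MT-ND2 at −1.57 and MT-ND3, also of complex I, at 0.38. Nuclear genes of the respiratory chain did not follow, with a median of 0.17 over 45 genes.

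Single members of further lists stood far from 0. SQSTM1, the autophagy receptor p62, had 325 CPM with BZW2 shRNA and 1053 CPM in the control in HT29, and 343 CPM in the knockdown and 268 CPM in the control of SW480, a difference of −2.05 in a list whose median was −0.21. BIRC3, an inhibitor of apoptosis induced by NF-κB, stood at −2.36 and the chemokine gene CXCL8 at 1.52. IL6R, the interleukin 6 receptor gene, stood at −2.16, and the growth factor receptor genes FGFR4 and IGF1R at 1.96 and 1.65. GCLC, the first enzyme of glutathione synthesis, stood at −1.49. The immediate early genes FOS and JUN were at 1.59 and 1.55, lower in both lines with BZW2 shRNA. DNA replication genes, all 36 above control in both lines, had a median difference of −0.03.

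**Figure D4:**
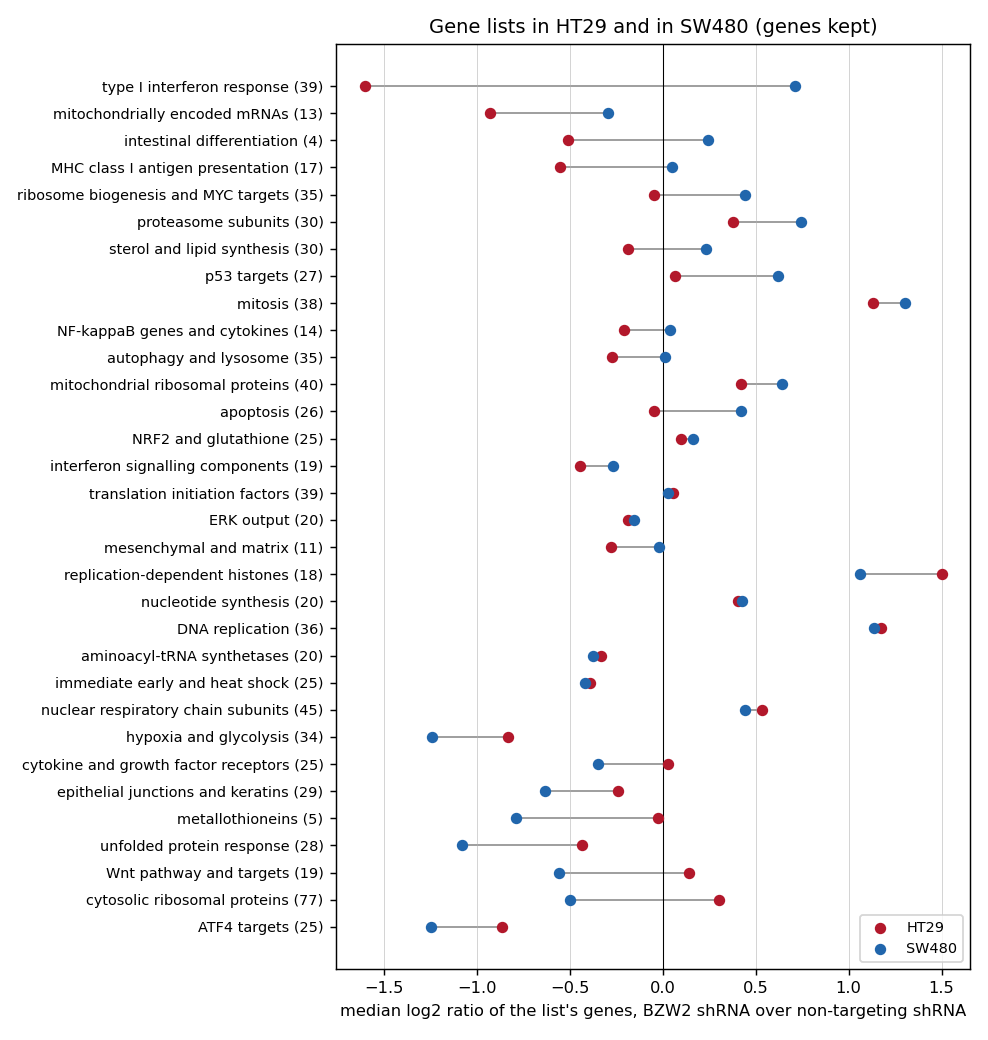
Median log2 ratio of BZW2 shRNA over non-targeting shRNA for the kept genes of each list, in HT29 (red) and SW480 (blue), with the number of genes in brackets and the most negative difference at the top. Interferon-response genes have the widest gap, from −1.60 in HT29 to 0.71 in SW480, and ribosomal protein genes lie at 0.30 in HT29 and −0.50 in SW480.

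HCT116 gave a further ratio for 9729 of the kept genes, of which 51.3% were below 0. The HCT116 BZW2 shRNA library was the shallowest of the series, with 2187373 reads, so its ratios rest on fewer reads. Among the 20 genes lower in HT29 and higher in SW480, 19 were listed in HCT116 and 15 of these were below control there, with a median of −1.43. SAMD9 stood at −4.84, IFIT1 at −2.62 and RIGI at −1.32, while OAS3 was at 1.89, USP18 at 0.97 and ISG15 at 0.51. Of the 6 genes in the opposite direction, 4 were below control in HCT116, CXCR4 (−0.53) and NKD1 (−0.98) among them. Of the interferon-response list, 26 of 38 genes were below and 12 above control in HCT116, against 38 of 39 below control in HT29.

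The difference followed the GC content of transcripts across genes, with a Spearman correlation of 0.353 over 9746 genes. This lay in the HT29 ratio (0.344) and not in the SW480 ratio (−0.038), and in HCT116 the ratio followed GC content at 0.709. When genes were divided into 10 equal groups by GC content, the group with the lowest had a median difference of −0.51, and the 2 groups with the highest had 0.24 and 0.22. Genes at 1 or above had a median GC content of 54.9%, and genes at −1 or below one of 40.8%, against 47.3% over all. Correlations with transcript length (−0.069) and level (−0.129) were smaller. Interferon-response genes had a median GC content of 50.9%, above that of all genes, and a median difference of −2.61 after GC content and length were removed. What sets the GC trend of each line was not tested. After removal of GC content and length, 404 of the 633 genes (63.8%) and 373 of the 579 (64.4%) were still at least 2-fold apart in their direction.

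**Figure D5:**
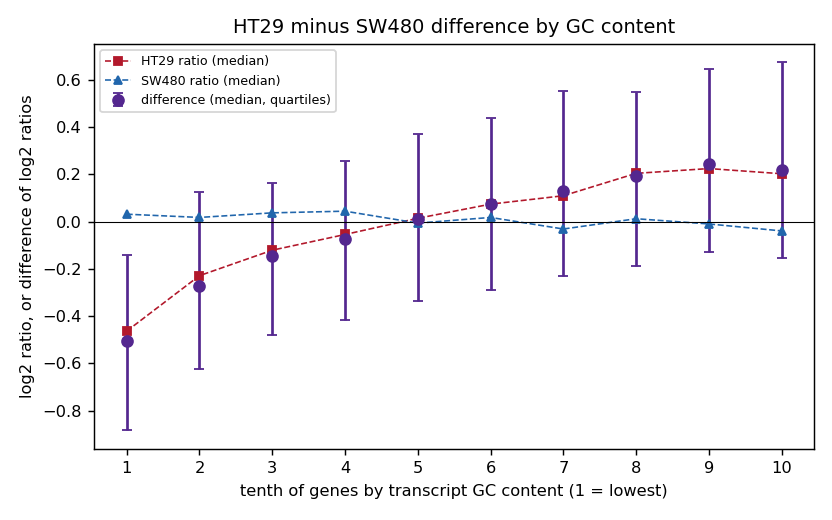
Kept genes divided into 10 equal groups by transcript GC content, lowest at the left. Purple points are the median difference of HT29 minus SW480 with quartiles, red squares the median HT29 ratio and blue triangles the median SW480 ratio, all on the log2 scale. The difference runs from −0.51 in the lowest group to 0.22 in the highest along with the HT29 ratio, and the SW480 ratio stays near 0.

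The limits of the rule cut through continuous values. Just inside the CPM limit were RAB11B and HACE1, each with 5.003 CPM in the higher library of one line, and just outside were ARV1 and SMIM27, each with 4.989 CPM. Just inside the 2-fold limit were CEBPZ at −1.0006 and ACTR3B at 1.0017, and just outside LSS at −0.9991 and MACO1 at 0.9992.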

How the data were processed

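RNA sequencing libraries of HT29 and SW480 cells with BZW2 or non-targeting shRNA were compared, 1 library per line and treatment. Per the submitters' processing notes, reads were handled with bcl2fastq 2.17, aligned with STAR 2.5.2b to GRCh38 and normalised with DESeq. For the gene annotation, the counter and its strand setting, the sources used here name nothing. The table the authors deposited holds a normalised signal per gene, which was found to be reads divided by a size factor set within each line's pair, so that whole reads could be recovered, although raw counts had been planned for. A gene with 20 reads or fewer summed over a line's pair is blank there, and blank genes were not analysed. Reads were rescaled over the 4 libraries with TMM in edgeR 4.0.16 (R 4.3.3), and log2 ratios took a prior count of 2. With 1 library per group no test was possible, and each difference has an exact conditional 95% interval for the counting of reads. The simulated data on which it was tried held counting spread only. They could not check the interval against spread between cultures or libraries. Totals of the HT29 and SW480 libraries were between 5078001 and 9317444 reads, and the HCT116 BZW2 shRNA library had 2187373. Transcript GC content and length came from GENCODE 29 and promoters from RefSeq. Genes were named by rule: the 10 largest differences in each direction with opposite ratios of at least 2-fold, the next 10 of any form, the extremes of each list, and the genes next to each limit. The lists and genes were chosen with earlier results of these data known. Alternatives covered the scaling, the prior, the CPM minimum and removal of GC content and length.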

Additional observations from a re-analysis of the deposited data

Results flagged for a closer look

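The results named here stood out because the HT29 and SW480 libraries lay on opposite sides of their controls, and none of these differences between lines was tested. The difference of the HT29 and SW480 log2 ratios was −6.16 for IFIT1, −5.55 for SAMD9, −5.20 for IFI6, −4.68 for DDX60, −4.43 for IFI44, −3.97 for IFIT2, −3.74 for IFIH1, −3.73 for RIGI, −3.67 for USP18 and −3.21 for OAS3. It was −3.09 for PARP9, −2.92 for SP110, −2.63 for DTX3L, −2.53 for PARP12, −2.52 for ISG15 and −2.07 for TRIM14, all on the interferon-response list. Outside that list it was −3.18 for CENPE, −2.44 for TAP2, −2.10 for CDC42BPA and −2.03 for SLC35G2.

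In the other direction the difference was 4.89 for CXCR4, 3.35 for NKD1, 2.77 for EPHB3, 2.63 for PLCD1, 2.37 for WDTC1 and 2.35 for FMNL3. Among the lists in which the median ratios of the lines had opposite signs and most genes lay on those sides of their controls, the median differences were −2.53 for interferon-response genes, −0.58 for MHC class I antigen presentation, 0.81 for cytosolic ribosomal proteins and −0.53 for ribosome biogenesis and MYC targets. Medians also had opposite signs, without most genes doing so, in other lists, among them Wnt genes with 0.57 and intestinal differentiation genes with −0.64 (4 genes).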

How the results depend on the processing

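Over 8 alternatives, 276 of 282 values of named genes and 251 of 256 list medians moved by less than the half-width of their counting interval. For a list this was the median half-width of its genes, which is not an error of the list median. It holds no spread between cultures or libraries. None of the values and medians that moved by more changed sign. Genes with a difference of 1 or above numbered 283 with a minimum of 20 CPM, against 633, and their range was 283 to 863. Genes at −1 or below ranged from 389 to 714 and genes lower in HT29 and higher in SW480 from 15 to 23. Genes higher in HT29 and lower in SW480 numbered 16 with a minimum of 1 CPM, 1 with a minimum of 20 CPM and 2 with GC content and length removed, of which 1 was among the 6. Scaling by library size gave 536 genes at 1 or above and 699 at −1 or below, moved the median of all genes to −0.08, and gave 0.74 for ribosomal proteins. Removal of GC content and length gave medians of 0.72 for ribosomal proteins, 0.26 for aminoacyl-tRNA synthetases, −0.28 for histones and −0.33 for NRF2 genes, and moved SAMD9 to −5.06, IFI6 to −5.50, IFIT5 to −3.0015, CENPE to −2.65, BZW1 to 0.85 and BZW2 to −0.10. Medians near 0 crossed it for DNA replication (0.01), immediate early and heat shock genes (−0.08) and nucleotide synthesis (0.04) with GC content and length removed, and for mesenchymal genes (0.24) with a minimum of 1 CPM. The cause was not tested. No paired analysis was possible because each group has 1 library. Depth limits values that rest on few reads, such as NLRC5 and the SW480 values of CXCR4.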
